A study of Mus musculus with 3 samples.

Results

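The genes described here are 40 protein-coding genes known as markers of oligodendrocytes and astroglia, chosen by symbol in the GENCODE M39 annotation of GRCm39, out of 21757 protein-coding genes. They comprise 24 genes of the oligodendrocyte lineage and 16 genes of astroglia. The data were 3 hMeDIP replicates of cerebellum from an 8-week-old female C57Bl6Cr mouse, in which DNA fragments carrying 5-hydroxymethylcytosine (5hmC) were pulled down with an antibody and sequenced directly by nanopore. Replicate 1 used a whole serum α-5hmC antibody and replicates 2 and 3 an IgG-purified one, each with 1 µg of sonicated DNA (mean fragment 362 bp). All 3 reactions carry the library name of 1 animal and were compared with 1 untreated MinION library, so the spread between them is technical and no spread between mice could be given. Peaks numbered 497, 8546 and 5166 in replicates 1, 2 and 3, and the base-call files held 69910, 104238 and 75624 calls at 29039, 64388 and 47104 CpG sites. Peaks that overlapped across replicates were joined into 13342 merged regions, of which 10729 had their midpoint in a protein-coding gene or within 1 kb upstream of one. In the 40 glial genes there were 24.

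Oligodendrocytes wrap axons in myelin, a membrane built from proteins such as those of Mbp, Mog and Mag. Astroglia take up ions and transmitters and couple to one another through gap junctions, and in the cerebellum they include the Bergmann glia, which lie alongside the Purkinje cells. 5hmC is made when TET enzymes oxidise 5-methylcytosine (5mC), and in brain it is known to be abundant in the bodies of many transcribed genes. The DNA came from whole tissue, and every cell holds every gene, so no marker level could be read from it. A smaller number of cells of a type and a lower modification level per cell cannot be told apart.

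Regions were found in 8 of the 40 glial genes (20%), the same as the 20% of all protein-coding genes. The 8 were Mbp, Tspan2 and St18 of the oligodendrocyte lineage and Slc4a4, Aldh1l1, Gjb6, Clu and Hopx of astroglia. Over their summed length of 2.16 Mb, the 40 genes held 11.1 regions per Mb, beside 9.51 per Mb over all protein-coding genes. Slc4a4 alone held 8 regions and Mbp 6, together 14 of the 24. Without Slc4a4 the other 39 genes held 8.85 regions per Mb. The share of glial genes with a region was thus at the background, and the density lay on either side of it with and without Slc4a4. The density also fell below that of all protein-coding genes without replicate 2 (2.78 against 4.00 per Mb) and among peaks of at least 4-fold enrichment (1.85 against 1.99 per Mb).

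The counts of single replicates were also near the background. Replicate 1 had a peak in 1 glial gene, where 1.74% of protein-coding genes had one. Replicate 2 had 20 peaks in 6 glial genes, against a background of 15.2%. Replicate 3 had 5 peaks in 5 glial genes, against 11.1%. Most regions came from 1 replicate. Of the 24, 2 were formed by peaks of 2 replicates (8.33%, beside 6.10% of the regions in protein-coding genes), and both lay in Slc4a4. Slc4a4 was therefore the 1 gene of 40 with a region from 2 or more replicates, beside 2.54% of protein-coding genes.

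Long genes more often had a region. None of the 9 glial genes under 10 kb had one, where 6.44% of protein-coding genes of that length did. Of the 24 glial genes of 10 to 100 kb, 4 had a region, beside 20.8%. Of the 7 of 100 kb or more, 4 had a region, beside 53.3%. Per Mb, the glial genes of these classes held 0, 8.08 and 13.3 regions, beside 11.8, 10.3 and 9.12 in all protein-coding genes, so density rose with length in the first and fell in the second. Slc4a4 gave 8 of the 18 regions in the longest class. The median length was 88.8 kb for the 8 glial genes with a region and 16.6 kb for the 32 without. Gjb6 was the shortest glial gene with a region, at 10.3 kb, and Prr5l the longest without, at 170.0 kb.

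**Figure D1:**
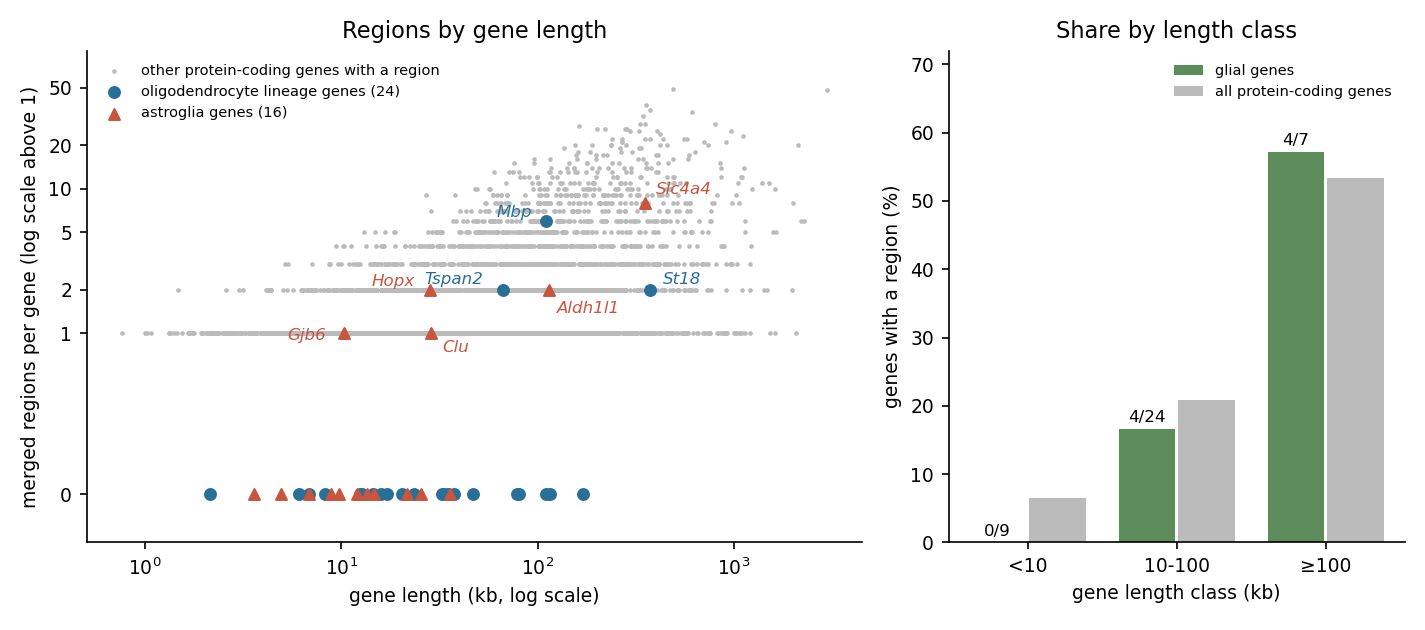
Left, merged regions per gene (vertical axis, log scale above 1) against gene length in kb (log scale) for the 40 glial genes and, in grey, the other protein-coding genes that had a region. Right, the percentage of genes with a region in 3 length classes, with counts of glial genes above the green bars (0 of 9, 4 of 24 and 4 of 7) beside the 6.44, 20.8 and 53.3% of all protein-coding genes in grey.

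Printed sequences show where the calls of these genes fell, 1 for each gene with 6 or more calls in a region that lay outside the untranslated exons, Mbp excepted. Each is a window of 200 bases of the GRCm39 forward strand inside a region, written 5′ to 3′, and capitals mark the CpG sites that had at least 1 5hmC call in any replicate. The Slc4a4 window (chr5:89073350-89073549, intron 1, gene on the forward strand) held 6 CpG sites, and all 6 had 5hmC calls. The Hopx window (chr5:77262307-77262506, gene on the reverse strand) held 9, of which 7 had 5hmC calls. In the Tspan2 window (chr3:102658350-102658549, intron 2) all 5 sites had them, and in the St18 window (chr1:6815656-6815855, intron 1) all 3. The Aldh1l1 window (chr6:90462829-90463028, upstream of the gene) held 7 sites, of which 5 had calls and 1 had 5hmC.
Slc4a4: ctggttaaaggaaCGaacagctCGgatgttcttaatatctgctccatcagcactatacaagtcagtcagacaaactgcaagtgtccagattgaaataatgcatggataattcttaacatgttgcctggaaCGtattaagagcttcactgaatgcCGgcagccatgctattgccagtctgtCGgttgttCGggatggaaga
Hopx: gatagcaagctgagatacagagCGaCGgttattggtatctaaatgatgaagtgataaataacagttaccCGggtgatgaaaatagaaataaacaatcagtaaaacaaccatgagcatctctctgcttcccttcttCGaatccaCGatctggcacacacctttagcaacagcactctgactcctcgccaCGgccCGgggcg
Tspan2: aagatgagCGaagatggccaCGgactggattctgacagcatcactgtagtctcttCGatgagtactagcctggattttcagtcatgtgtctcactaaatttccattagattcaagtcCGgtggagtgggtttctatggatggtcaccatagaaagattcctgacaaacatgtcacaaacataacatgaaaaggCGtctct
St18: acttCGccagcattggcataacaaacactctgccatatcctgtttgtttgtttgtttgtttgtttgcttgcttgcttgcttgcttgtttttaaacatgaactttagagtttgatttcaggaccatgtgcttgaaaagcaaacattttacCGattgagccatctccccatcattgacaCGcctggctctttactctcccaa
Aldh1l1: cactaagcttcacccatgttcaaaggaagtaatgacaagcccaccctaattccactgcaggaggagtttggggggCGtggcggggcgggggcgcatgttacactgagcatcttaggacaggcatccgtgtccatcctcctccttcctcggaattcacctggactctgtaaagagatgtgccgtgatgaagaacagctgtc

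The 14 myelin and mature oligodendrocyte genes held 8 regions, 6 in Mbp and 2 in Tspan2. Mbp (110.6 kb, chromosome 18, forward strand) encodes myelin basic protein, which holds the layers of compact myelin together. Its regions 1 to 5, counted from the 5′ end, were peaks of replicate 2, and region 6 was a peak of replicate 3. Fold enrichment over background at their summits ran from 2.77 to 3.83. Regions 1, 2 and 3 lay 10.2, 60.0 and 71.2 kb from the gene start, upstream of the canonical transcript and inside introns of 9, 12 and 12 of the 69 annotated Mbp transcripts. Regions 4, 5 and 6 lay in introns 1, 2 and 6 of the 6 introns of the canonical transcript. The midpoint of region 4 also fell in an exon of 9 other transcripts.

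The calls of Mbp were spread unevenly over its regions. In region 2, of 29 calls, 4 were 5hmC and 25 were 5mC. In region 3, 11.2 kb further on, 10 of 13 calls were 5hmC (76.9%, exact binomial 95% interval 46.2 to 94.96%) and the other 3 were 5mC. Region 4 had 9 calls, of which 7 were unmodified C, 2 were 5mC and none was 5hmC (interval 0 to 33.6%). All calls of region 3 came from replicate 2, while 13 of the 25 5mC calls of region 2 came from replicate 1. Within replicate 2, 5hmC made up 4 of 16 calls in region 2 (7.27 to 52.4%) and 10 of 13 in region 3, and these intervals overlapped. All intervals given here cover counting error only, since calls of 1 read are not independent. Regions 1, 5 and 6 had 2 of 5, 1 of 9 and 3 of 11 calls as 5hmC.

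Summed over the gene, Mbp had 20 5hmC, 40 5mC and 16 unmodified calls (26.3% 5hmC, 16.9 to 37.7%). None of the 13 calls of replicate 1 was 5hmC, while replicate 2 had 17 of 48 (35.4%) and replicate 3 had 3 of 15. Replicate 1 was thus the lowest, with all of its 13 calls in region 2 and all of them 5mC. Among the 1937 protein-coding genes with at least 20 pooled calls, whose 5hmC shares had a median of 32.1% and quartiles of 24.2 and 39.1%, Mbp stood at percentile 30.7.

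Tspan2 (67.0 kb, chr3:102641813-102708829, forward strand) encodes a tetraspanin membrane protein made by oligodendrocytes. Both regions were peaks of replicate 2, in introns 1 and 2, with fold enrichments of 2.87 and 3.80. Region 2, from which the printed window was taken, had 7 5hmC, 7 5mC and 1 unmodified call, and region 1 had 1 5hmC call of 6. By replicate, 3 of 3, 5 of 15 and 0 of 3 calls of the gene were 5hmC. The replicates of Tspan2 spanned the whole scale, and 2 of them had 3 calls each. The pooled share was 38.1% (18.1 to 61.6%, percentile 70.0).

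Regions were absent from the other 12 genes of this group. They were Mog, Mag, Mobp and Cnp, whose proteins sit in or under the myelin membrane, Mal, Cldn11 (the claudin of myelin tight junctions), Opalin, Ermn, Gjc3 (a connexin of oligodendrocyte gap junctions), Ugt8a (the enzyme that makes galactosylceramide), Aspa (aspartoacylase) and Prr5l. Cnp lay nearest to a region of all of these, at 14.7 kb, and Mog farthest, at 738 kb.

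Of the 4 oligodendrocyte transcription factor genes, St18, which encodes a zinc finger protein, had 2 regions. St18 is the longest glial gene of the 40, at 373.7 kb (chr1:6557455-6931164, forward strand). The regions lay in introns 1 and 2 of 21 of the canonical transcript, both as peaks of replicate 2, with fold enrichments of 2.87 and 3.70. In region 1, 8 of 10 calls were 5hmC, and in region 2 it was 3 of 4. By replicate, 2 of 4 calls of St18 were 5hmC in replicate 1 and 9 of 10 in replicate 2, and replicate 3 had no call. The pooled share of 78.6% (49.2 to 95.3%) rested on 14 calls, under the 20 set for a rank among genes. At the third CpG of the printed St18 window, position 178, all 5 calls of replicates 1 and 2 were 5hmC.

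Olig1, Olig2 and Myrf had no region. Olig1 and Olig2 encode the helix-loop-helix factors that specify the lineage, and Myrf the factor that switches on myelin genes. Olig1 and Olig2 were the most CpG-dense of the 40 genes, with 75.9 and 54.8 CpG per kb, and their nearest regions were 55.6 and 98.8 kb away. Myrf lay 23.6 kb from one.

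The 6 genes of precursors and newly formed oligodendrocytes had no region. Pdgfra (the receptor for platelet-derived growth factor), Cspg4 (the NG2 proteoglycan), Gpr17 (a G protein-coupled receptor), Bcas1, Enpp2 (autotaxin) and Enpp6 were 111 to 578 kb from the nearest one. Enpp2 and Enpp6, at 115.0 and 109.9 kb, were 2 of the 3 glial genes of 100 kb or more without a region.

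**Figure D2:**
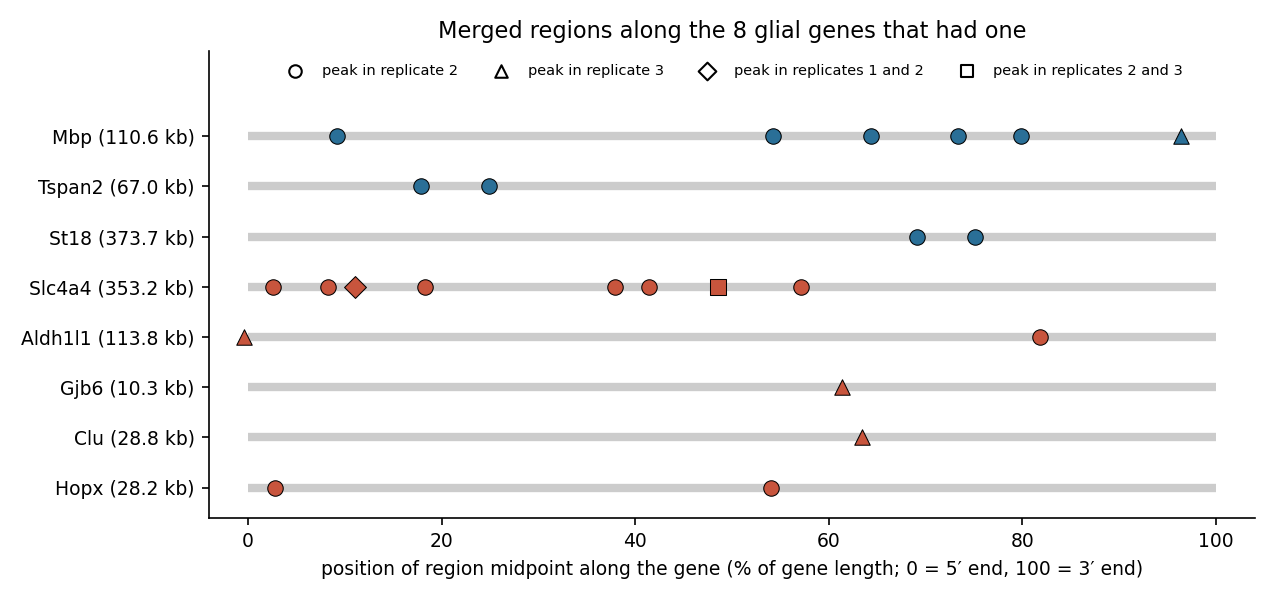
Position of each of the 24 region midpoints along its gene, as a percentage of gene length from the 5′ end, for the 3 oligodendrocyte lineage genes (blue) and 5 astroglia genes (red) with a region. Marker shapes give the replicates whose peaks formed the region. The regions of Slc4a4 all lie in the first 57.1% of the gene.

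The 12 astrocyte genes held 12 regions, 8 of them in Slc4a4. Slc4a4 (353.2 kb, chr5:89034345-89387514, forward strand) encodes a sodium bicarbonate cotransporter of the astrocyte membrane. Its regions lay 9.15 to 201.6 kb from the gene start, in introns 1 to 7 of the 24 introns of the canonical transcript, and none lay in the remaining part of the gene. Region 7 was the only one of the 24 that touched coding sequence.

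The regions shared by replicates in Slc4a4 were regions 3 and 7. Region 3 (chr5:89073039-89073666, intron 1) joined a peak of replicate 1 (3.78-fold) and a peak of replicate 2 (4.62-fold). Replicates 1, 2 and 3 had 3 5hmC calls of 10, 8 of 15 and 6 of 8, so 5hmC was called there in each of them, including the one without a peak. Region 7 (chr5:89205452-89206179, intron 6) joined a peak of replicate 2 (4.79-fold) and a peak of replicate 3 (4.84-fold). There, the same replicates had 7 of 12, 0 of 6 and 6 of 12 calls as 5hmC. Replicate 2 had a peak in region 7 without a 5hmC call, and replicate 1 had 5hmC calls without a peak. Pooled, 5hmC made up 51.5% of 33 calls in region 3 (33.5 to 69.2%) and 43.3% of 30 calls in region 7 (25.5 to 62.6%).

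The other regions of Slc4a4 were peaks of replicate 2 with few calls. Region 1 had 8 5hmC calls of 12, region 2 had 3 of 4, and region 5 had 3 of 8. Regions 4, 6 and 8 had 1 of 5, 0 of 1 and 1 of 7. Within the printed window of region 3, every one of the 6 CpG sites had 3 or 4 calls and at least 1 5hmC call, 12 of 21 in all.

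Over the whole gene, 46 of 100 calls in Slc4a4 were 5hmC, 41 were 5mC and 13 were unmodified (46.0% 5hmC, 36.0 to 56.3%). By replicate the 5hmC share was 38.5% of 26 calls, 44.4% of 54 and 60.0% of 20. All 3 replicates were above the median of 32.1%, and Slc4a4 ranked 195 of the 1937 protein-coding genes with at least 20 calls (percentile 89.9).

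Aldh1l1 (113.8 kb, chr6:90463409-90577185, forward strand) encodes a folate enzyme widely used as a pan-astrocyte marker. Region 1 (chr6:90462805-90463106), a peak of replicate 3 at 3.87-fold, was the only one of the 24 centred upstream of a gene, 0.453 kb before the start of Aldh1l1. The same position lies in the lncRNA gene Gm45901. Of 6 calls there, 1 was 5hmC, 3 were 5mC and 2 were unmodified. Region 2, a peak of replicate 2 in intron 14, had 4 5hmC calls of 6. By replicate 1 of 2, 3 of 6 and 1 of 4 calls of Aldh1l1 were 5hmC.

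Gjb6 and Clu had 1 region each, both as peaks of replicate 3. Gjb6 (chr14:57360757-57371087, reverse strand) encodes connexin 30 of astrocyte gap junctions, and its region in intron 2, at 2.90-fold, had 1 call of each state. Clu (chr14:66190200-66218999, forward strand) encodes the secreted chaperone clusterin, and its region in intron 1, at 3.67-fold, had 2 5hmC calls and 1 unmodified call. Neither region had a call in replicates 1 or 2.

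Gfap (the intermediate filament of astrocytes), Aqp4 (their water channel), S100b (a calcium-binding protein), Gja1 (connexin 43), Apoe (the main lipid carrier of brain), Sparcl1 (a secreted matrix protein), Ntsr2 (a neurotensin receptor) and Glul (glutamine synthetase) had no region. Aqp4 was the farthest from one of all 32 glial genes without, at 885 kb, and Ntsr2 the nearest of these 8, at 61.7 kb.

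Among the 4 genes of Bergmann and radial glia, Hopx (chr5:77234831-77263022, reverse strand), which encodes a small homeodomain protein, had 2 regions, both peaks of replicate 2. Region 1 (chr5:77261987-77262506) lay 0.776 kb inside the 5′ end of the gene, in an intron of 4 of its 11 transcripts and outside the canonical one, with a fold enrichment of 4.79. Its 52 calls were the most of any of the 24 regions, 13 of them 5hmC, 21 5mC and 18 unmodified. By replicate 1 of 7, 8 of 30 and 4 of 15 calls were 5hmC, so replicates 2 and 3 were level at 26.7% and replicate 1 lower at 14.3%. Pooled, the share was 25.0% (14.0 to 38.9%, percentile 26.0).

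Region 2 of Hopx, which also lies in the lncRNA gene Hopxos, had no call in any replicate. Gdf10 (a growth factor of Bergmann glia), Fabp7 (a fatty acid binding protein) and Vim (vimentin) had no region, although one lay 2.72 kb from Gdf10, the nearest of the 32.

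**Figure D3:**
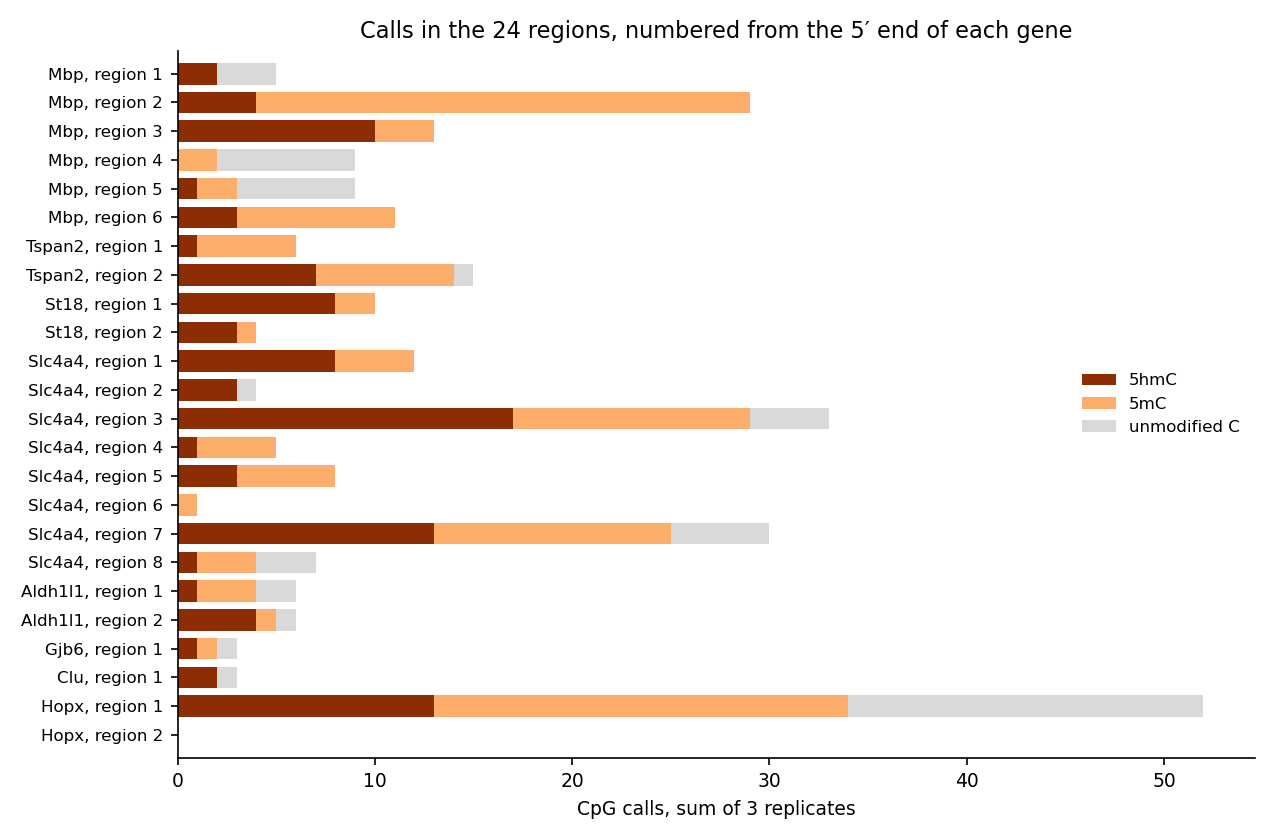
Number of CpG calls in each of the 24 regions, summed over 3 replicates and split into 5hmC, 5mC and unmodified C. Hopx region 1 has 52 calls and Slc4a4 regions 3 and 7 have 33 and 30. In Mbp, 25 of 29 calls of region 2 are 5mC, 13 of them from replicate 1, and 10 of 13 calls of region 3, all from replicate 2, are 5hmC.

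The regions had much in common beside their genes. Introns of the canonical transcript held 18 of the 24, and the other 6 lay outside that transcript. The median length was 304 bp (302 to 839 bp), also the median over regions of all protein-coding genes, and 15 of the 26 peaks had the shortest length in their replicate (57.7%, beside 56.1% of all peaks). Median GC content was 47.9% and CpG density 16.4 per kb, beside 49.3% and 18.1 per kb. At least 1 5hmC call was found in 21 of the 24 regions (87.5%, beside 81.5% of the 10729 regions in protein-coding genes), 2 had calls but none of 5hmC (8.33%, beside 13.3%), and 1 had no call (4.17%, beside 5.22%).

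Most of these peaks rested on few reads. MACS2 divides the reads at the summit plus 1 by the background plus 1, so its fold values step by whole reads. Of the 26 peaks in glial genes, 19 fell on such a step within 0.02 reads, 6 at 2 reads, 10 at 3 and 3 at 4 (73.1% in all, beside 65.9% of all peaks). At a CpG site of these regions a replicate had 1 call in 76.0% of cases (70.8% over all protein-coding genes) and at most 4. No single site could therefore be given a level. In 2 or more replicates 5hmC was called in 6 regions (25%, beside 34.3% of those in protein-coding genes), and in all 3 replicates in 2 (8.33%, beside 7.92%).

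Summed over the 24 regions, 5hmC made up 30.9, 40.5 and 36.5% of the calls in replicates 1, 2 and 3, which numbered 55, 163 and 63. The exact intervals ran from 19.1 to 44.8%, from 32.9 to 48.4% and from 24.7 to 49.6%. The mean was 36.0% ± 4.81 (SD, n = 3), beside 31.5% ± 0.909 (SD, n = 3) for the other protein-coding genes. The glial genes were higher by 0.381, 8.16 and 4.87 percentage points in replicates 1, 2 and 3, a mean of 4.47 ± 3.91 (SD, n = 3). The interval of the glial share held the value of the other genes in replicates 1 and 3 and not in replicate 2, where the others stood at 32.3%. Without Slc4a4 the glial interval of replicate 2, 29.4 to 48.3%, held that value too. These intervals cover counting error only. Without replicate 2 the difference from the other genes was 14.0 ± 9.19 percentage points (SD over replicates 1 and 3), on 6 regions in 5 genes. Among peaks of at least 4-fold enrichment it was 10.5 ± 6.69 (SD, n = 3), on 4 regions, all in Slc4a4 and Hopx. The pooled 5hmC share of Slc4a4 was 56.25% in the first of these settings and 50.7% in the second. With all peaks and replicates but without Slc4a4, the glial mean was 29.4% ± 7.93. The difference then turned to -2.08 ± 7.18 percentage points (SD, n = 3). Slc4a4 and Mbp together held 176 of the 281 calls (62.6%).

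The 5mC share in the glial genes was 65.5, 35.0 and 46.0% in replicates 1, 2 and 3 (mean 48.8% ± 15.4, SD, n = 3), beside 40.5% ± 0.544 for the other genes. Unmodified C made up 3.64, 24.5 and 17.5% (mean 15.2% ± 10.6, SD, n = 3), beside 28.0% ± 0.787. Unmodified C was lower in the glial genes in each replicate, by 25.3, 3.24 and 9.93 percentage points. Without Slc4a4 it was 3.45, 26.6 and 23.3%, beside 28.9, 27.8 and 27.4% for the other genes. Leaving out 1 replicate moved the mean of 15.2% to 2.70% (without replicate 2) or 21.4% (without replicate 1). Replicate 1 stood apart, with 2 unmodified calls of 55. It was also the replicate with the other antibody and the fewest peaks, and the part of these in its values was not tested.

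**Figure D4:**
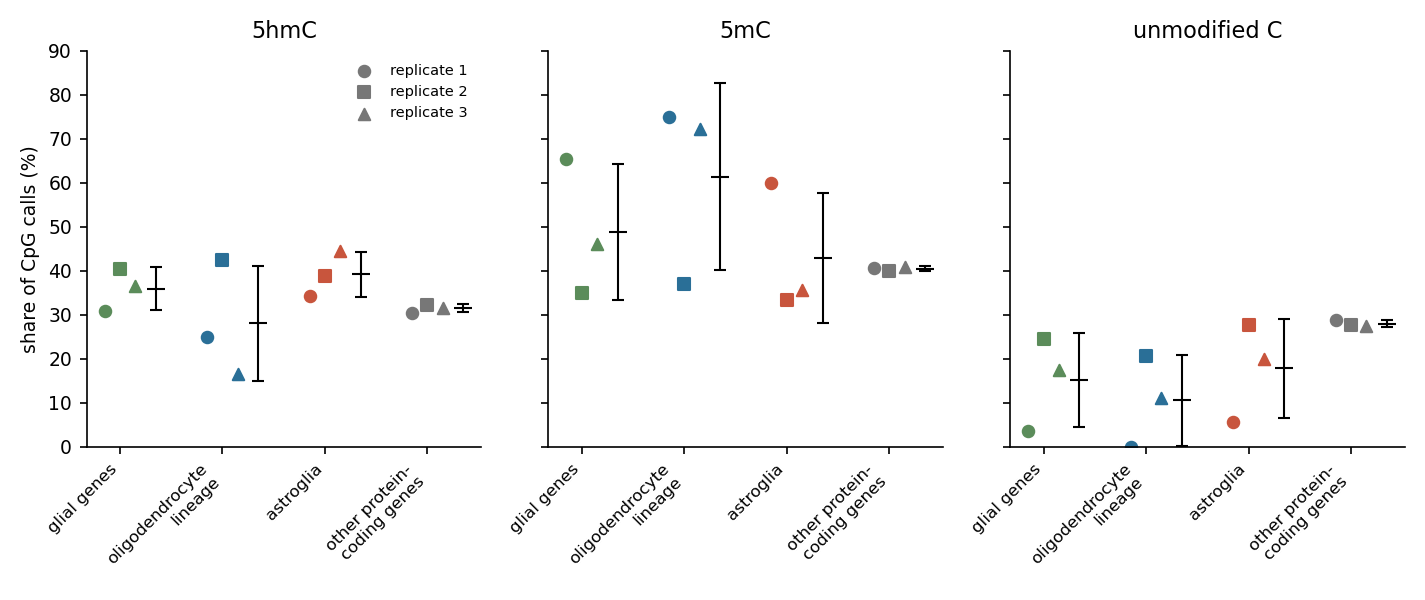
Percentage of CpG calls that were 5hmC, 5mC or unmodified C in regions of the glial genes, of their oligodendrocyte lineage and astroglia members, and of the other protein-coding genes. Symbols are the 3 replicates and bars the mean ± SD. The glial replicates spread from 30.9 to 40.5% 5hmC, and the other genes from 30.5 to 32.3%.

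Oligodendrocyte lineage and astroglia genes were set side by side. Of the 24 lineage genes 3 had a region, with 10 regions or 6.87 per Mb, and of the 16 astroglia genes 5 had one, with 14 regions or 19.8 per Mb. All protein-coding genes, at 20% and 9.51 per Mb, lay between them. The median gene length was 33.0 kb in the lineage and 14.1 kb in astroglia. Without Slc4a4 the astroglia density was 16.99 per Mb, from 6 regions in 4 of 15 genes, each a peak of a single replicate. The 5hmC share of the lineage genes was 25.0, 42.5 and 16.7% in replicates 1, 2 and 3, on 20, 73 and 18 calls. That of the astroglia genes was 34.3, 38.9 and 44.4%, on 35, 90 and 45 calls. The lineage genes were lower in replicates 1 and 3 and higher in replicate 2. The mean difference was -11.2 ± 15.8 percentage points (SD, n = 3), and -1.67 without replicate 3. In 5hmC the groups thus did not differ beyond the spread between replicates. Without Slc4a4 the astroglia mean was 28.3% ± 5.28 and the lineage mean 28.0% ± 13.2 (SD, n = 3). For unmodified C the difference was -5.71, -7.23 and -8.89 percentage points (mean -7.28 ± 1.59, SD, n = 3). It rested on 0, 15 and 2 unmodified calls in the lineage and 2, 25 and 9 in astroglia. Hopx region 1 gave 1, 11 and 6 of these astroglia calls. The 12 astrocyte genes alone had 3.57, 23.3 and 10.0% unmodified C, beside 0, 20.5 and 11.1% in the lineage. Without Slc4a4 the astroglia genes had 11.1, 38.9 and 32.0%. The size of the difference, and its direction in replicate 3, thus depended on which genes were included. For 5mC the difference between the lineages was 15, 3.65 and 36.7 percentage points (mean 18.4 ± 16.8, SD, n = 3).

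**Figure D5:**
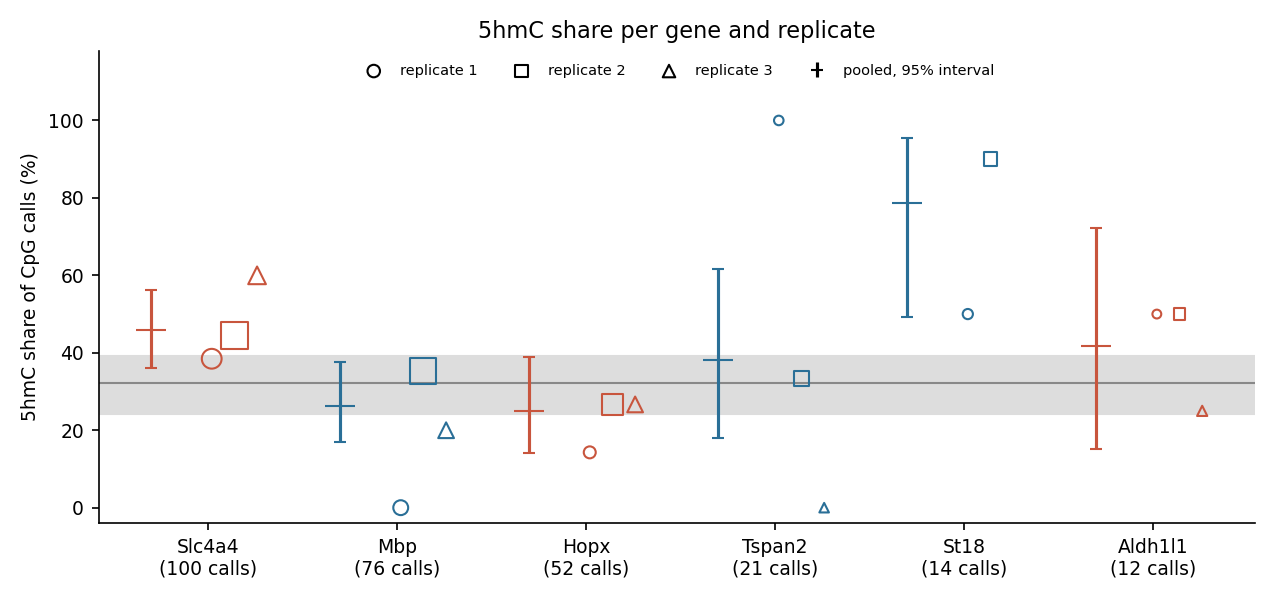
5hmC share of CpG calls for the 6 glial genes with at least 10 pooled calls. Open symbols are the replicates, sized by their number of calls, and bars are the pooled share with its exact binomial 95% interval. The grey line and band are the median (32.1%) and quartiles of the 1937 protein-coding genes with at least 20 calls. The 3 replicates of Slc4a4 lie above the line, and those of Hopx below it.

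Of the 9 glial regions with at least 10 calls, 6 were at or above 33.3%, the median 5hmC share of the 5067 such regions in protein-coding genes, and 5 were above the upper quartile of 44.4%. They ran from 13.8% in Mbp region 2 to 80.0% in St18 region 1. The 5 above the quartile belonged to Slc4a4, Mbp, St18 and Tspan2, so both lineages were among them. Apart from Slc4a4 region 3, they were regions of 10 to 15 calls. In Slc4a4 region 1 and Mbp region 3 all calls came from replicate 2. The remaining regions of the 24 had fewer than 10 calls and were not compared with this median.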

How the data were processed

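The authors base-called the reads of the 3 hMeDIP libraries with Dorado 0.5.1, aligned them to mm39 (GRCm39) with minimap2 2.24 and called narrow peaks with MACS2 2.2.6 for each replicate alone. The deposited peak lists hold a fold enrichment (a ratio), −log10 p and q values and a display score. Their methods state removal of blacklisted peaks. The deposited base-call counts, made with modkit 0.2.8, hold 5hmC, 5mC and unmodified calls per CpG site on the forward strand, at sites where any replicate had a peak, with a percent of valid calls, and masked repeats are stated to be excluded. Peaks overlapping by at least 1 bp were joined, and a region was given to each protein-coding gene holding its midpoint in its body or 1000 bp upstream. Calls were summed per gene and replicate, with exact (Clopper-Pearson) 95% intervals. Shares are of calls in pulled-down DNA. No p-value was computed. The genes and lists were chosen with earlier results of these data known. Genes named in full were those with a region from 2 or more replicates, the 8 with most calls or the 5 with most regions. The calculations were tested on simulated data and run with Python 3.11.15, pandas 2.3.3, scipy 1.17.1 and pysam 0.24.0.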

Additional observations from a re-analysis of the deposited data

How the results depend on the processing

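With peaks of at least 4-fold enrichment, 2 glial genes had a region, with 4 regions or 1.85 per Mb (6.94% of protein-coding genes and 1.99 per Mb), their 5hmC share was 41.0% and the difference from the other genes 10.5 percentage points. With q-values of 0.01 or less, 6 genes had 15 regions or 6.94 per Mb (16.1% and 6.48 per Mb). Leaving out each replicate in turn gave 5 to 8 genes, 6 to 24 regions, 2.78 to 11.1 per Mb, 0 to 1 genes with a region from 2 or more replicates, 34.8 to 44.4% 5hmC, 41.2 to 52.9% 5mC, 2.70 to 21.4% unmodified C, and a difference of 3.35 to 14.0 percentage points from the other genes. The lowest counts came without replicate 2, which gave 20 of the 26 peaks. The glial density of 2.78 per Mb was then below the 4.00 per Mb of protein-coding genes, of which 11.7% had a region. Without replicate 1 it was 11.1 per Mb, beside 9.27 per Mb and 19.8% of protein-coding genes. Without replicate 3 it was 9.25 per Mb, beside 6.34 per Mb and 15.6%. The 5hmC difference between the lineages was -10.4 without replicate 1 and -1.67 without replicate 3. Without replicate 2, the replicate in which the lineage genes were higher, it had no value, as under both peak thresholds and with each replicate's own peaks alone. Without Slc4a4, a choice made after seeing the data, the 5hmC share was 29.4% and the difference from the other genes -2.08 percentage points. Joining of peaks, assignment to genes and the mean of single sites moved none of these values beyond 1 SD or 1.5 times. A minimum of 3 or 5 calls a site left a replicate without sites, and those shares could not be given. Depth, at 1 call for most sites, limits all shares.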

Other observations

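Further glial genes, listed beside the 40, gave a similar count. Of 40 such genes, 7 had a region, with 38 regions or 13.1 per Mb (20% and 9.51 per Mb over all protein-coding genes), 1 of 20 oligodendrocyte genes and 6 of 20 astroglia genes. Sox10 (a factor of the oligodendrocyte lineage) was without one, as were Slc1a3 (a glutamate transporter of astroglia) and Sox9. Ntrk2, the receptor for brain-derived neurotrophic factor, had 19 regions and 238 calls, with 5hmC at 41.5, 39.4 and 37.0% in replicates 1, 2 and 3. Lingo1 had 7 regions and 108 calls, at 22.7, 23.5 and 21.7%. Nfia, a transcription factor of gliogenesis, had 7 regions and 65 calls, none in replicate 1, at 50.0 and 37.0% in replicates 2 and 3. The shares of Ntrk2 and Lingo1 in 3 replicates spanned fewer percentage points than those of Slc4a4, Mbp, Hopx, Tspan2 and Aldh1l1, and each had more calls than any of these.

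Of 38 genes of cerebellar neurons, 11 had a region, with 96 regions or 12.4 per Mb and a 5hmC share of 38.4% ± 2.59 (SD, n = 3), where the further glial genes had 34.7% ± 3.91 and protein-coding genes other than the 40 had 31.5% ± 0.909. The counts stood beside the same 20% and 9.51 per Mb of all protein-coding genes. The median length of the neuron genes was 41.9 kb, beside 19.2 kb for all protein-coding genes. Granule cell genes accounted for 7 of the 11, out of 14 such genes. They held 58 regions or 38.8 per Mb, 24 of them in Rbfox3 and 19 in Chn2. Purkinje cell genes gave 3 of 14, with 37 regions or 8.05 per Mb, and interneuron genes 1 of 10, with 0.605 per Mb. Among 20 genes of microglia and vessels, 1 had a region, P2ry12 (a purine receptor of microglia), with 5 calls.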
